A study of Rattus norvegicus with 4 samples.

Results

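Transcripts of the cytosolic ribosomal proteins were followed in rat liver under the volatile anesthetics sevoflurane and desflurane, both halogenated ethers. Members were chosen by symbol. A gene was taken where its symbol began with Rpl, Rps or Rplp and a number, or was Rpsa, and S6 kinase genes and pseudogene symbols were left out. The rule found 85 symbols among the 17455 named symbols of the tables, 50 of the large subunit (Rpl and Rplp) and 35 of the small subunit (Rps and Rpsa).

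The series holds 4 RNA-seq libraries of liver from wild-type rats. Sevoflurane was given at 4.5% and desflurane at 6%, and for each agent a control animal was killed when it lost consciousness (0 h) while another stayed under anesthesia for 6 h. Each agent and each time thus has 1 library. All 4 animals had therefore inhaled an anesthetic, and no group was free of it. There are no replicates, so each difference below is a difference between single animals, with no error and no p-value unless a test is named. Livers of the 6 h animals were taken 6 h later in the day than those of the controls, and duration of anesthesia and hour of harvest cannot be told apart. The sources used here give neither strain nor age for these libraries.

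The ribosome is built from ribosomal RNA and a fixed set of small basic proteins, about an equal number of copies of each, and the liver makes many ribosomes because it secretes much of the protein of blood plasma. Most mRNAs of these proteins begin with a C followed by an unbroken run of pyrimidines, the 5′ terminal oligopyrimidine (TOP) motif. Through it their translation follows the kinase mTOR and the RNA-binding protein LARP1, so the amount of such an mRNA and the amount of protein made from it can part. Only the amount of mRNA was measured here.

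To show the motif on which that control rests, sequences around the annotated transcript start were read from a RefSeq promoter table of the rat assembly GRCr8, which is not the build of the abundance tables (rn6, per the submitters' processing notes). By symbol, 68 of the 85 members had an entry, and 67 of them lay on the chromosome the abundance tables give. The other, Rps9l1, was left out. For 4 of the 67 (Rpl10, Rpl36, Rps13 and Rps16) the strand differs between the 2 sources. A TOP start was counted where a C followed by at least 4 pyrimidines began within 5 bases of the annotated start, on the transcribed strand. The first 4 sequences below are members with such a start, among them the stalk protein Rplp0, Rpl28 as a member of low abundance, and Rpl31 and Rps24, which were lower at 6 h with both agents. The next 4 are a pair of genes with a TOP start and, under each, its paralog without one. Not all paralogs differed so: Rps4x and Rps4y2 both had a TOP start, and Rpl3 and Rpl3l both lacked one. Each window runs 5′ to 3′ over 30 bases, of which 10 lie before the annotated start. Capitals mark the pyrimidine run from the counted C onward, which is the C nearest the annotated start that qualifies. Pyrimidines directly before that C stay in lower case, as in Rpl22 and Rps24, so the counted C need not open the run.
Rpl31 (GRCr8, chr9:49143101-49143130, plus strand): atccctcgcgCCTTTCCTTTCCaacttggg
Rps24 (GRCr8, chr16:96507-96536, plus strand): ggtcctcttttCCTCCTTTacagctcgggc
Rplp0 (GRCr8, chr12:46718371-46718400, minus strand): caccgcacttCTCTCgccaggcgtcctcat
Rpl28 (GRCr8, chr1:78083513-78083542, minus strand): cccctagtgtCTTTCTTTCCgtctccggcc
Rpl22 (GRCr8, chr5:168117951-168117980, plus strand): gcgcccccctCCCTTTCTgcctcctctgcc
Rpl22l1 (GRCr8, chr2:113683186-113683215, plus strand): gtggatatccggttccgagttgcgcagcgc
Rps27 (GRCr8, chr2:177964587-177964616, minus strand): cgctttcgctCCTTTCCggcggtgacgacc
Rps27l (GRCr8, chr8:76443648-76443677, plus strand): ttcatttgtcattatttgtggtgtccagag

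Of the 68 promoters of the members, 41 (60.3%) had a TOP start. The share was 17.0% over all 33469 promoters of the table, and also 17.0% over 7662 promoters of other protein-coding symbols expressed in these livers at a mean TPM of at least 1. Promoters of mitochondrial ribosomal proteins, which belong to another ribosome, had it in 24.6% of 65 cases. With the C placed exactly at the annotated start the member share was 33.8%, against 2.63% of all promoters. At the base after the start, 79.4% of member promoters carried C or T, against 49.3% of the other expressed symbols. Rps16, Rpl3, Rpl22l1, Rps27l and Rps19bp1 were among those without a TOP start in this window, which says only that the annotated start lacks these letters.

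**Figure D1:**
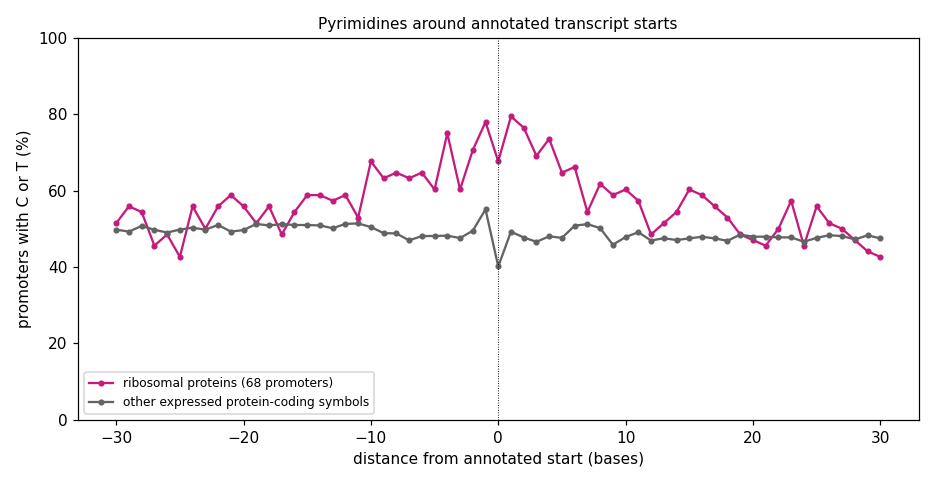
Share of promoters (%) with C or T at each base from 30 before to 30 after the annotated transcript start, for 68 promoters of cytosolic ribosomal proteins (pink) and for promoters of other protein-coding symbols with a mean TPM of at least 1 (grey). The pink line stands highest at the base after the start (79.4%), where the grey line is at 49.3%.

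Abundance is given as TPM, a transcript share scaled for gene length and library size, in which levels of different genes can be set side by side. The members were abundant and narrow in range. Their median level (mean of the 4 libraries) was 233 TPM, against 7.88 TPM over the 9255 symbols with a mean of at least 1 TPM, and 71 of the 85 had a mean level between 100 and 500 TPM. Of the 500 symbols with the highest mean level, 63 were members, but of the 100 highest only 1, Rpl41.

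Rpl41, a peptide of the large subunit and the shortest ribosomal protein, stood at 794 TPM in sevoflurane 0 h, 767 in sevoflurane 6 h, 949 in desflurane 0 h and 765 in desflurane 6 h. Rps29, a small zinc-binding protein of the small subunit, came next with 605, 549, 669 and 590 TPM in the same order of libraries. Rpl37a, a zinc-binding protein of the large subunit, followed with 430, 413, 478 and 455 TPM. Rpl41 exceeded Rps29 in each library, and Rps29 exceeded Rpl37a in each. The order of the members by level was nearly the same in every library, with Spearman's rho across 84 members between 0.963 and 0.988 for the library pairs. These are correlations across genes, which share their libraries.

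At the low end stood paralogs of more abundant members. Rpl3l, the paralog of Rpl3 known from heart and skeletal muscle, was listed at 0 in both controls, at 0.08 TPM in sevoflurane 6 h and at 0.03 in desflurane 6 h. Its counterpart Rpl3, which lies at the peptidyl transferase centre, was at 182, 214, 209 and 195 TPM. Rpl39l, a paralog known from the male germ line, was at 2.66 TPM in sevoflurane 0 h, 0.69 in sevoflurane 6 h, 0 in desflurane 0 h and 1.02 in desflurane 6 h, while Rpl39, at the exit of the nascent chain tunnel, was at 328, 263, 363 and 311. Rps4y2 had 9.73, 7.58, 11.3 and 9.33 TPM beside 228, 208, 269 and 229 for Rps4x. The mean coverage of Rpl39l was 6.27, 2.36, 0 and 3.72, and the tables give no read counts.

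Other paralogs were common in liver. Rpl36al had a mean of 155 TPM and exceeded Rpl36a, at 50.5, in every library. Rps27l, a target of p53, had a mean of 107 TPM beside 390 for Rps27. Rpl22l1 had a mean of 67.7 TPM beside 131 for Rpl22. Rps19bp1 met the rule by its letters but encodes a protein that binds Rps19 and is no ribosomal subunit. It stood at 9.99, 7.82, 9.19 and 7.27 TPM and is counted among the 84 members below.

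**Figure D2:**
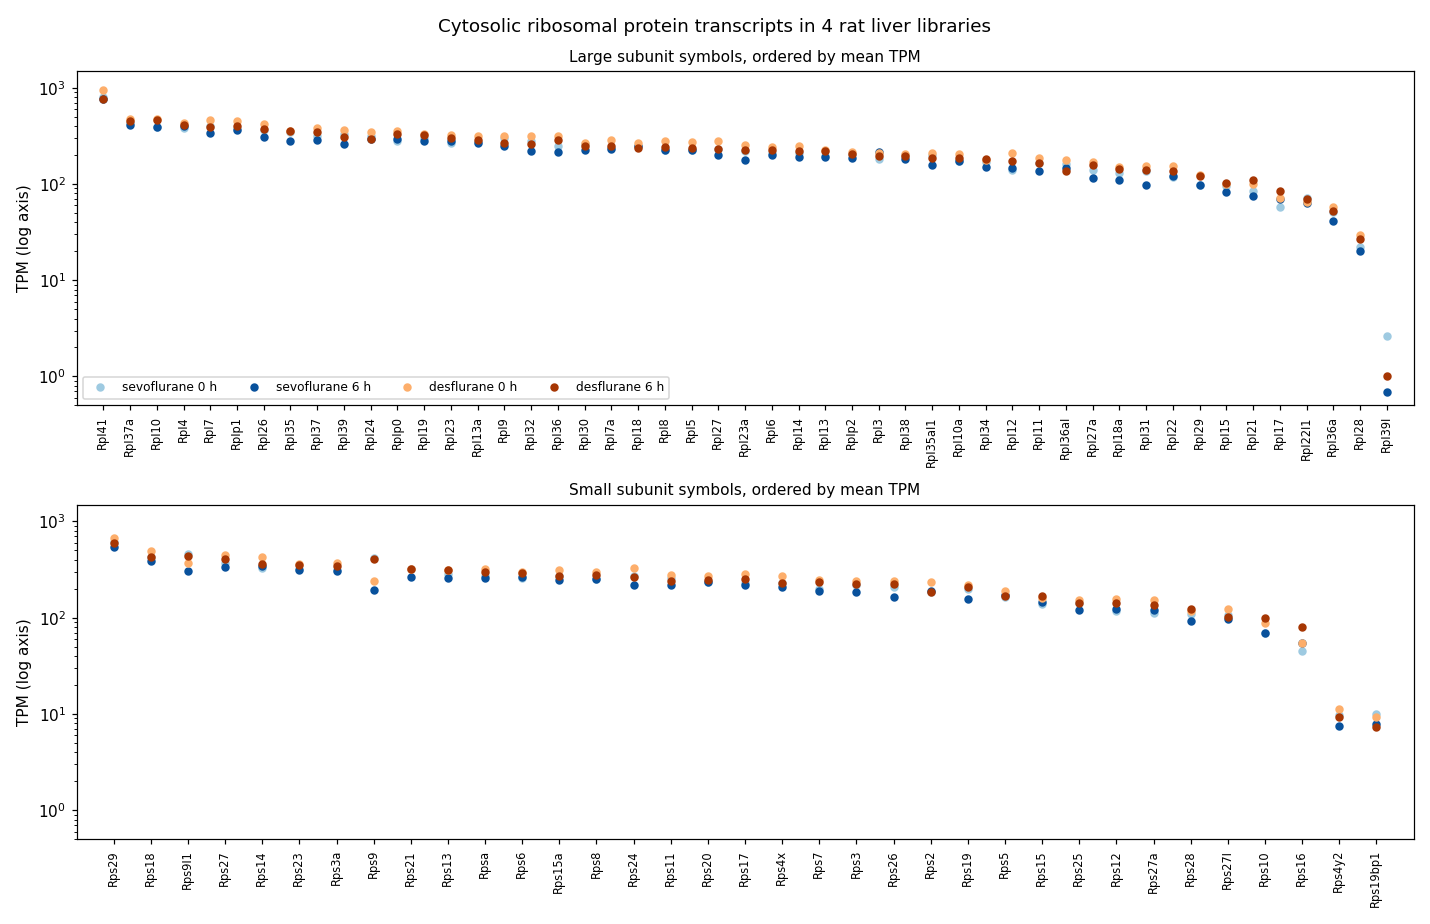
Level of each cytosolic ribosomal protein symbol in TPM (log axis) in the 4 libraries, large subunit above and small subunit below, ordered by mean level; 84 symbols with a mean of at least 1 TPM are drawn, and a library listed at 0 has no point (Rpl39l in desflurane 0 h). Most points lie between 100 and 500 TPM, and sevoflurane 6 h (dark blue) is the lowest library for 62 of the 84 symbols.

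Some levels depend on how a gene was laid out in the tables. In every library 68 members had a single row. The other 17 had more than 1 row in at least 1 library, and the rows of a symbol were summed. For 3 members the number of rows differed between libraries. The small subunit symbols Rps9 and Rps9l1 were listed at the same positions (build rn6, chromosome 1, minus strand, 64018325 to 64021723 and 64086625 to 64090023). In sevoflurane 0 h and desflurane 6 h each symbol had 2 rows there. In sevoflurane 6 h and desflurane 0 h it had 1 row spanning both positions. The summed level of Rps9 was 414 TPM in sevoflurane 0 h, 194 in sevoflurane 6 h, 241 in desflurane 0 h and 403 in desflurane 6 h. The high values are those of the libraries with 2 rows. Loci assembled from the reads at these positions gave 524, 476, 571 and 498 TPM, so the differences of Rps9 and Rps9l1 below go with the number of rows. Rps6, the substrate of S6 kinase, had 1 row at 0 h and 2 at 6 h, and its summed levels were close to each other at 262, 266, 301 and 291 TPM. Rpl7a had 4 rows, of which a pair under 1000 bp long on chromosomes 1 and 18 held most of its TPM and the longer pair on chromosome 3 about 10 TPM each in sevoflurane 0 h (10.7 and 10.1). In that library rows under 1000 bp held 98.0% of Rpl35al1 TPM, 36.4% of Rpl9 TPM and 28.9% of Rpl37 TPM, but 5.29% of Rpl10a TPM. Whether such rows share reads with the longer ones was not tested. Some members with a single row also differed from the assembled loci that overlap it. In sevoflurane 0 h Rps27a was at 111 TPM on its row and 312 on assembled loci, while Rpl41 was at 794 on each. Why they differ was not tested.

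The first comparison asked how the members differed after 6 h of sevoflurane. They were slightly and broadly lower. The median change of log2(TPM + 1) was -0.13 over the 84 members with a mean of at least 1 TPM, against 0.05 over all 9255 symbols. Of the members 67 (79.8%) were lower at 6 h, where 44.4% of all symbols were lower by any amount. Changes were small, with 96.4% of members within 0.5 on the log2 scale against 77.9% of all symbols. Among 2287 other symbols of like level (mean 20 to 850 TPM, a range set after the values were seen) the median was 0.00 and the quartiles were -0.20 and 0.24, against -0.24 and -0.01 for the members.

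A symbol was called when it exceeded 2 TPM in the higher library and differed more than 2-fold. With sevoflurane 0 members were called higher, where 5.19% of the symbols tested were, and 2 were called lower, Rps9 and Rpl39l, where 3.76% were. The call of Rps9 goes with its rows, and the call of Rpl39l rests on 2.66 against 0.69 TPM. Among members of ordinary level, Rpl31, which sits by the tunnel exit, (build rn6, chromosome 9, plus strand, 46086959 to 46090444) stood at 137 TPM in sevoflurane 0 h and 98.2 in sevoflurane 6 h, a change of -0.47. Rps19, a small subunit protein mutated in Diamond-Blackfan anemia, went from 200.2 to 155 TPM (-0.37). Rps26, at the mRNA exit, went from 211 to 164 TPM (-0.36), and Rpl32 from 278 to 220.

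The few members that were higher with sevoflurane had small differences. Rpl17, which lines the exit tunnel, stood at 57.5 and 69.7 TPM at 0 h and 6 h (0.27), Rps16, whose tail reaches the peptidyl site, at 45.1 and 54.2 (0.26), and Rpl3 at 182 and 214 (0.23). For Rpl17 the assembled loci gave 99.7 and 52.8 TPM, the opposite direction. For Rps16 (build rn6, chromosome 1, minus strand, 85405499 to 85408444, 1 row in each library) they gave the same 45.1 and 54.2 TPM. The acidic stalk proteins were nearly level, with Rplp0 at 283 and 290 TPM, Rplp1 at 374 and 363 and Rplp2 at 205 and 187. Rpl5 and Rpl11, which travel with 5S RNA and bind Mdm2, differed by -0.02 and -0.25.

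The second comparison was the same for desflurane. The median change of the members was -0.13 on the log2 scale and 71 (84.5%) were lower, but here all symbols shifted too, with a median of -0.10 and 61.6% lower by any amount. With the libraries scaled by the median of ratios, which moved the median of all symbols from -0.10 to 0.00, the median of the members was -0.01 and 46 of 84 were lower. The desflurane difference of the members was thus about that of all symbols, and the sevoflurane difference was not: with the same scaling its median was -0.19 with 74 lower, where all symbols stood at 0.00. In desflurane 0 members were called higher, where 4.18% of symbols were, and 0 lower, where 5.58% were.

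With desflurane the largest decreases among members of at least 10 TPM were those of Rpl36al (176 to 138 TPM, -0.35), Rps2, a small subunit protein by the mRNA entry (233 to 187, -0.32), and Rpl41 (949 to 765, -0.31). For Rps2 the assembled loci gave 304 and 184 TPM with desflurane (-0.72), and 443 and 199.6 with sevoflurane (-1.15), where its named row gave 183 and 189. Rps16 was higher at 6 h, with 54.2 TPM at 0 h and 80.2 at 6 h (0.56), and the assembled loci gave 54.7 and 80.2. Rps9 and Rps9l1 differed by 0.74 and 0.25, again with the number of rows. The stalk protein Rplp0 was at 352 and 327 TPM, and Rpsa, also known as the laminin receptor, at 320 and 298 TPM.

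**Figure D3:**
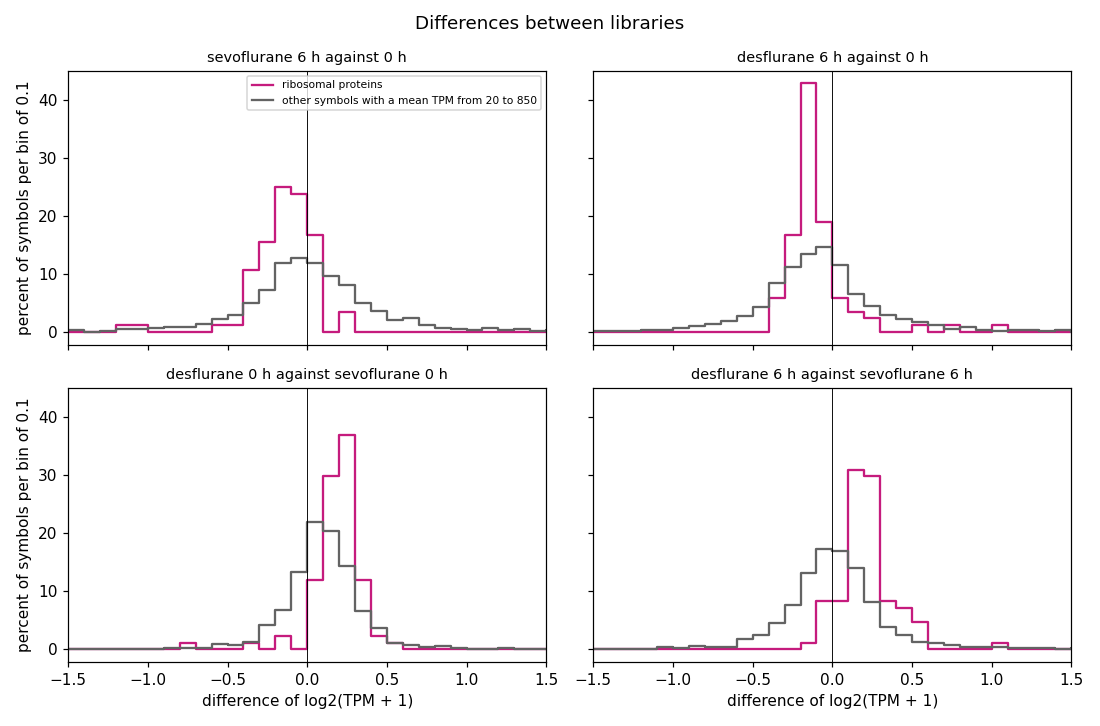
Distribution of the differences of log2(TPM + 1) in bins of 0.1 (percent of symbols in each bin) for 84 ribosomal protein symbols (pink) and 2287 other symbols with a mean level of 20 to 850 TPM (grey) in the 4 pairwise comparisons of libraries. Rpl39l lies outside the axis in desflurane 0 h against sevoflurane 0 h. The members form a narrow peak left of 0 at 6 h against 0 h (medians -0.13 with sevoflurane and -0.13 with desflurane, grey 0.00 and -0.09). For desflurane against sevoflurane it lies right of 0 (medians 0.20 at 0 h and 0.20 at 6 h, grey 0.10 and 0.00).

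The agents were then compared at like duration. On the deposited TPM scale these differences were larger at the median than those with time, which did not hold for the controls under scaling by the median of ratios. Desflurane 0 h exceeded sevoflurane 0 h in 79 of 84 members (94.0%), with a median of 0.20, where all symbols had a median of 0.11 and 69.2% were higher. Both were controls killed at loss of consciousness. Among them 0 members were called higher, where 2.06% of symbols were, and 1 was called lower, where 0.856% were. That was Rpl39l, listed at 0 in desflurane 0 h. At 6 h the desflurane library exceeded the sevoflurane library in 76 members (90.5%), again with a median of 0.20, while all symbols had a median of -0.03 and 45.9% were higher. Here 1 member was called higher, Rps9, where 2.3% of symbols were, and 0 lower, where 1.87% were. With that scaling the members had medians of 0.076 for the controls and 0.25 at 6 h, beside -0.19 and -0.01 for 6 h against 0 h. These comparisons share libraries with those above.

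On the deposited TPM scale most members therefore shared parts of an order of libraries. In 56 of 84 (66.7%) both desflurane libraries were above both sevoflurane libraries, where 15.5% of all symbols had this order. Desflurane 0 h was the highest library for 69 members (82.1%, against 35.9% of all symbols) and sevoflurane 6 h the lowest for 62 (73.8%, against 23.2%). With the libraries scaled by the median of ratios, 38 of 84 members were higher in desflurane 6 h than in its control. The orders were not counted on that scale. Both 6 h libraries lay below both controls for 20 members (23.8%), near the 27.8% of all symbols, and above both for 0 members, against 22.8% of all. Rps24, at 274 and 326 TPM in the controls and 217 and 265 at 6 h, belonged to the 20. So did Rps18, with 431 and 498 TPM in the controls and 390 and 430 at 6 h, while its sevoflurane and desflurane libraries overlapped.

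The summed level of the members was 19412 TPM in sevoflurane 0 h, 17679 in sevoflurane 6 h, 22035 in desflurane 0 h and 20299 in desflurane 6 h. The 6 h library was lower than its control with each agent, yet desflurane 6 h was above sevoflurane 0 h. These sums were 2.53%, 2.27%, 2.79% and 2.63% of the TPM of all named symbols. Without the abundant 7SL RNA symbol Rn7sl1, which held 20.2% of the named TPM in sevoflurane 0 h, they were 3.18%, 2.86%, 3.41% and 3.28%. The large subunit summed to 11232, 10400, 12963 and 11717 TPM and the small subunit to 8180, 7279, 9072 and 8582, and in each the highest library was desflurane 0 h and the lowest sevoflurane 6 h. The sums of all members and of the small subunit include Rps9 and Rps9l1, whose levels go with their rows. Without them all members summed to 18541.5, 17178.3, 21424.1 and 19456.4 TPM in the same order of libraries. The small subunit was not summed without them.

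On the deposited TPM scale, 58 of 84 members (69.0%) were lower at 6 h with both agents, where 34.4% of all symbols were. Another 4 were higher with both, 13 were higher after sevoflurane but lower after desflurane, and 9 the reverse. Of all 9255 symbols these were 2628, 2515 and 924. As 67 members were lower with sevoflurane and 71 with desflurane, most had to be lower with both, whether or not the agents agreed gene by gene. Scaled by the median of ratios, 74 members were lower with sevoflurane and 46 with desflurane, so at most 46 were lower with both. Spearman's rho of the changes across the 84 members was 0.04 between agents and 0.16 without Rps9, Rps9l1 and Rpl39l (81 members), against 0.45 over all 9255 symbols. Pearson's r was -0.42, 0.31 and 0.62 in the same order, so its sign over the members rests on those 3 symbols. These values are across genes, which are not replicates. The 4 higher with both were Rps16, Rpl17, Rps10 and Rps15. Rps10 stood at 69.6, 70.0, 88.5 and 98.6 TPM and Rps15 at 140, 146, 160 and 169 TPM, so that Rps10 hardly differed with sevoflurane (0.01) and differed by 0.15 with desflurane.

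**Figure D4:**
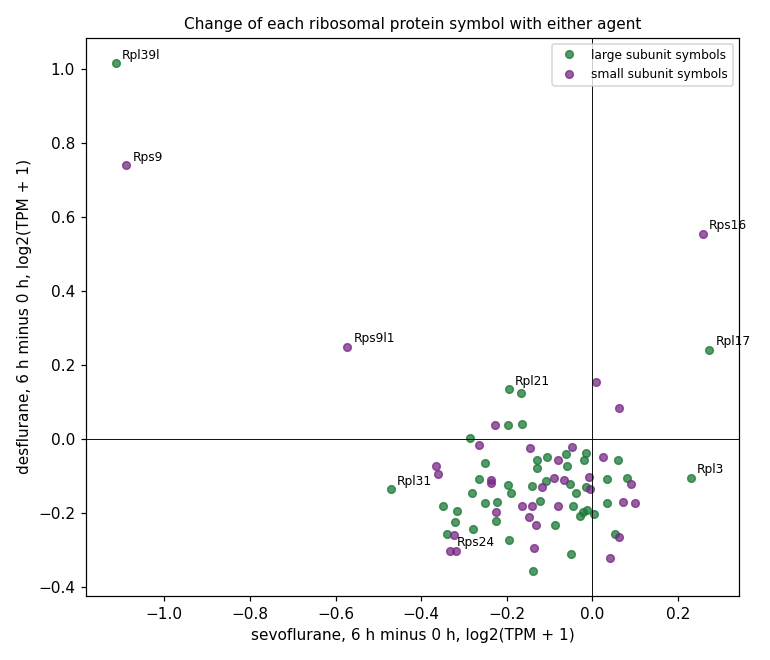
Change of each of 84 ribosomal protein symbols from 0 h to 6 h in log2(TPM + 1), sevoflurane on the horizontal and desflurane on the vertical axis, green for large and purple for small subunit symbols. On this deposited TPM scale most points crowd in the lower left field (58 of 84). Rps16 and Rpl17 stand at the upper right, and Rps9, Rps9l1 and Rpl39l at the upper left.

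A fit over both agents with limma (agent as a block, 1 residual degree of freedom, 8049 symbols with a mean of at least 2 TPM, two-sided, Benjamini-Hochberg adjusted) asked which symbols differed at 6 h in common. The agents stand in for pairs there and are not replicates of a treatment. Of the 83 members fitted, 77 had a lower and 6 a higher fitted value at 6 h. The share of all 8049 symbols with a lower fitted value was not counted. The fit used the deposited TPM, on which 44.4% of all symbols were lower with sevoflurane and 61.6% with desflurane. Of the members 0 passed an adjusted p of 0.05 in either direction, where 4.6% of symbols passed as higher and 3.83% as lower. At an unadjusted p of 0.05, 6 members (7.23%) passed against 19.8% of all symbols. Rps16 had the lowest adjusted p of the members, 0.149 by limma with Benjamini-Hochberg adjustment, at a change of 0.41 with an SE of 0.15. Rps24 (-0.32, SE 0.12), Rpl32 (-0.30), Rpl39 (-0.27), Rpl9 (-0.26) and Rpl31 (-0.30) were the others under the unadjusted threshold. The median fitted change was -0.11 for the members and -0.03 for all symbols, and the median SE of the members was 0.12.

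The members were then divided by the TOP start of their promoters. With sevoflurane the median was -0.11 over 41 members with it and -0.09 over 25 without. With desflurane the medians were -0.11 and -0.14. Between the 6 h libraries, all 41 members with a TOP start were higher in desflurane (median 0.24), as were 19 of the 25 without (median 0.13). Of all symbols 45.9% were higher there. Between the controls, 40 of the 41 with it were higher in desflurane (median 0.22), as were 23 of the 25 without (median 0.21). There 69.2% of all symbols were higher. Whether the TOP start bears on these differences was not tested. Their median levels were 233 TPM for 41 with it and 210.1 TPM for 26 without.

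Genes that work with the ribosome were set beside the members, in lists written with earlier results of these data known. Ribosome assembly factors, which build the particles in the nucleolus, differed from the members in direction with sevoflurane. Of 54 with a mean of at least 1 TPM, 50 were higher at 6 h (of all symbols 55.6% were), with a median change of 0.48, and 9 were called higher and 0 lower, where 5.19% and 3.76% of all symbols tested were. Rrs1, which brings 5S RNA and its proteins into the large subunit, stood at 5.33 TPM in sevoflurane 0 h and 16.7 in sevoflurane 6 h, and Heatr1, a factor of the small subunit processome, at 1.42 and 5.79. With desflurane the median was 0.06 and 35 were higher (of all symbols 38.4% were). There 1 was called higher, Rrs1 (6.17 and 14.6 TPM), and 0 lower, where 4.18% and 5.58% of all symbols tested were. The list's sevoflurane difference was 0.43 under scaling by the median of ratios and 0.23 against the desflurane control, in which Heatr1 was at 4.26 TPM.

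Other genes whose mRNAs have a TOP motif had a median of 0.05 with sevoflurane and -0.05 with desflurane over 21 genes, and 0 were called with either agent. Translation factors (38 genes) had medians of 0.12 and -0.05, and the mTOR axis with regulators of ribosomal protein mRNAs (20 genes) 0.17 and -0.10, with 1 call, Eif4ebp2, a repressor of cap-dependent initiation (3.28 to 7.38 TPM with sevoflurane). Of the ribosome components with other names, Rack1 changed by -0.11 and -0.14. Fau, a fusion that yields a small subunit protein, stood at 77.7, 71.3, 91.5 and 144 TPM. Mitochondrial ribosomal proteins (71 genes) had medians of -0.04 and -0.15, and Mrps10 was called higher with both agents (4.03 to 12.7 and 4.05 to 8.90 TPM). With desflurane Mrps31 was also called higher (15.2 to 34.7 TPM), and Mrpl34 (27.9 to 13.1) and Mrpl49 (22.3 to 9.60) were called lower. That made 2 of these 71 genes in each direction with desflurane. Over all symbols tested, the share called higher was 5.19% for sevoflurane and 4.18% for desflurane. The share called lower was 3.76% and 5.58% in the same order. Whether any of these lists differs from all symbols in its calls was not tested.

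**Figure D5:**
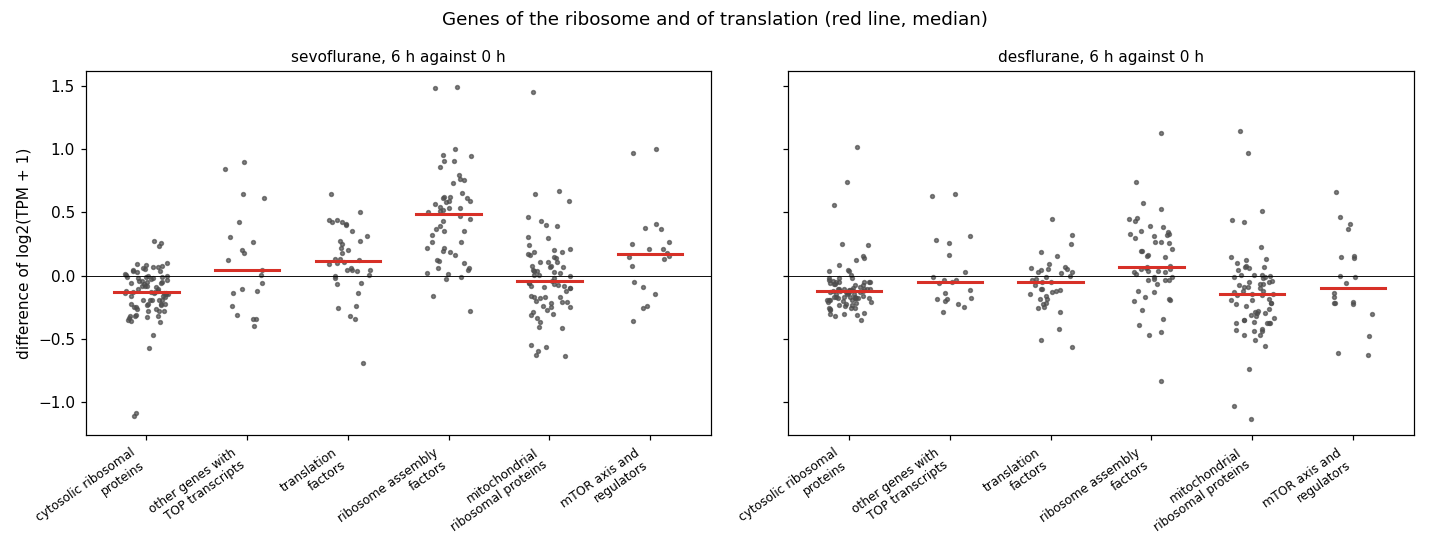
Change from 0 h to 6 h in log2(TPM + 1) of single genes (points) in 6 lists with their medians (red lines), sevoflurane on the left and desflurane on the right; symbols with a mean of at least 1 TPM are drawn. Ribosome assembly factors stand above 0 with sevoflurane (median 0.48) while the cytosolic ribosomal proteins lie just below it (median -0.13).

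Markers of cell types moved between libraries as well, and in bulk liver fewer cells of a type and less RNA per cell cannot be told apart. Hepatocyte markers were high in each library, with Alb between 53282 and 58867 TPM, and the list of 10 had a median of 0.12 after sevoflurane and -0.18 after desflurane. Erythroid markers (7 of 11 listed with a mean of at least 1 TPM) were higher at 6 h in each case, with medians of 1.36 and 0.83 and summed levels of 657 and 1736 TPM for sevoflurane and 1034 and 1926 for desflurane. Kupffer cell markers (7 genes) had medians of -0.36 and 0.29, endothelial markers (5 genes) -0.06 and 0.33, and stellate and fibroblast markers (6 genes) 0.30 and 0.33. Leukocyte markers (8 genes) had medians of -0.37 and 0.00, cell cycle genes (9 genes) -0.12 and -0.08, and cholangiocyte markers (2 genes) -0.04 and -0.10. The aligned bases implied by coverage and FPKM were 3.50 Gb for sevoflurane 0 h and 5.29 to 5.57 Gb for the others, and the median coverage of a member was 489 in that library and 625 to 804 in the others. The part of these cell types and of depth in the differences of the members was not tested.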

How the data were processed

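The authors deposited a gene abundance table for each liver library, with coverage, FPKM and TPM columns in the layout of StringTie. The submitters' processing notes name HISAT2, SAMtools, StringTie and rn6, with no versions in the sources used here. Libraries were made from total RNA after removal of ribosomal RNA, with strand kept. The deposited TPM was handled as a score, because assembled loci alone fill the total and named genes add to it. Coverage divided by FPKM gave the aligned bases. The tables hold no read counts, so counting intervals cannot be given, and what depth limits is said for low levels only.

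TPM of rows with the same symbol was summed, and changes were taken on log2(TPM + 1), which understates those of low genes. A symbol was called above 2 TPM and a 2-fold ratio. limma 3.58.1 (R 4.3.3) was fitted on symbols with a mean of at least 2 TPM. Scripts were tested on simulated data. Members, lists, tests and alternatives were chosen with earlier results of these data known. Genes were named where called, by the 3 largest changes per agent and direction, by the 3 highest and lowest levels, as paralog pairs, for more than 1 row, as up to 4 called genes of each other list, or as Rplp0, Rplp1, Rplp2, Rpsa, Rps6, Rps27a, Rpl5, Rpl11 and Rpl41. Rps10, Rps15, Rps18, Rps24, Rps26, Rpl21, Rpl28, Rpl32, Fau and Rack1 were named after their values were seen. Alternatives covered scaling, row choice, thresholds, the other agent's control and the start window.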

Additional observations from a re-analysis of the deposited data

Results flagged for a closer look

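For 6 members the change from 0 h to 6 h had opposite signs with the agents and exceeded 0.1 on the log2 scale in each, a limit set after the data were seen. With 1 library per group, none of these differences was tested. Rps9 changed by -1.09 with sevoflurane and 0.74 with desflurane, and Rps9l1 by -0.57 and 0.25, both with the number of rows that list them. Rpl39l differed by -1.11 and 1.02 on the log2(TPM + 1) scale at levels of 2.66 TPM or less, and its desflurane control is listed at 0. Rpl21, a large subunit protein, changed by -0.20 and 0.14 (85.2, 74.3, 99.9 and 109.8 TPM), while the assembled loci at its position gave 162 TPM in desflurane 0 h and 29.8 in desflurane 6 h. Rpl22l1 changed by -0.17 and 0.12. Rpl3 changed by 0.23 and -0.10, the latter 0.010 under the median of ratios.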

How the results depend on the processing

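Of 150 alternative values of the group results, 119 stayed close to the first value, 30 moved and 1 reversed, and of 430 for single genes named by the rule 67 moved by 0.1 or more. The sign differed in 32 of the 430, 16 of them under the median of ratios and 6 on assembled loci, and in 11 the first value exceeded 0.1. Among these were Rpl17 with sevoflurane (-0.91 on assembled loci) and Rps9 with desflurane (-0.20 on assembled loci). The median sevoflurane change of the members stayed negative in every alternative run, and was -0.31 against the desflurane control. The median desflurane change turned to 0.074 against the sevoflurane control, with 25 members lower, and was -0.011 with 46 lower under the median of ratios. That scaling also took the log2 ratio of summed TPM to -0.0036 for desflurane and 0.052 for the controls, and the median difference of the controls to 0.076. For assembly factors the other agent's control gave 0.23 with sevoflurane and 0.37 with desflurane, and the median of ratios 0.17 with desflurane. For mitochondrial ribosomal proteins these gave -0.15 with sevoflurane and -0.036 with desflurane. The share of TOP starts was 33.8% with a window of 0 bases and 72.1% with 10. In other alternatives the causes of such moves were not tested.

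Counts of called members were small, and moved with the rule. The share of all symbols called was counted only for the first rule, above 2 TPM and a 2-fold ratio. With sevoflurane the 2 calls became 1 at a ratio of 3, at a minimum of 5 TPM, with the highest row only and without Rps9, Rps9l1 and Rps19bp1 (added after seeing the data), and 0 against the other control. With desflurane 0 became 1 at a ratio of 1.5, with assembled loci and against the other control. With no minimum it became 2, Rpl39l (0 and 1.02 TPM) and Rpl3l (0 and 0.03 TPM), both near the floor. Between controls 1 became 2 at a ratio of 1.5 and with assembled loci, and 0 at a minimum of 5. At 6 h 1 became 0 at a ratio of 3, with the highest row only and without Rps9, Rps9l1 and Rps19bp1. With no minimum it became 2 through Rpl3l, at 0.03 TPM with desflurane and 0.08 with sevoflurane. On assembled loci the called genes changed too. Rps2 and Rpl39l were lower with sevoflurane, Rpl21 was lower with desflurane and between the 6 h libraries, and Rpl17 and Rpl39l were lower in the desflurane control. limma called 0 members in every alternative run, with the agent as a block and without it. With 1 library a group, no library could be left out.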
